A study of Mus musculus with 30 samples.

Results

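Mitochondrial ribosomal protein genes were taken as the rows of a mouse muscle expression table whose symbol is Mrpl or Mrps followed by a number and at most 1 letter. The rule found 77 genes among the 47643 symbols of the table, of which 48 were Mrpl (large subunit) and 29 were Mrps (small subunit). Expression was measured as TPM (reads per exon length, scaled so that each library has the same total). The samples were from the tibialis anterior, a fast-twitch shin muscle, of male C57BL/6J mice. The 30 libraries fell into 8 groups. The age experiment held 3 old (24 months) and 3 young (6 months) libraries. The dexamethasone experiment held 4 libraries treated with this synthetic glucocorticoid and 4 control libraries, and the LLC experiment held 4 libraries labelled LLC cancer and 4 controls. The siRNA experiment held 4 libraries with siRNAs against Cyr61, which encodes a secreted matrix protein, and 4 with NT siRNAs. The labels give no age for the last 6 groups, and no dose, duration, tumour site or route of siRNA delivery; they do not spell out LLC or NT. The extraction text refers to an earlier description of UBR4 mKO muscle at both ages, while the labels give these samples no genotype beyond the strain. The libraries are called biological replicates without saying how they were raised or housed, so p-values measure only the spread between these samples. The title of the series concerns how muscle wasting differs with its stimulus, and each comparison was made within its own experiment.

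Mitochondria carry their own ribosome, which translates the few mRNAs of the mitochondrial genome into core subunits of the respiratory chain and ATP synthase. Its RNAs are encoded by mitochondrial DNA, but all of its proteins are encoded in the nucleus, translated in the cytosol and imported, so the ribosome joins products of both genomes. The large subunit holds the peptidyl transferase centre and the small subunit reads the mRNA. Muscle fibres are rich in mitochondria and depend on this ribosome for oxidative phosphorylation. Some gene names do not match the place of the protein: the products of Mrps30 and Mrps18a sit in the large subunit, and the Mrps36 product is now regarded as a part of the 2-oxoglutarate dehydrogenase complex.

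All TPM values that follow were rescaled to the original total without the 37 rows of mitochondrially encoded genes, which took 34.04 to 60.4% of the deposited TPM per library. Their share was 37.9 ± 3.2% (SD, n = 4) after dexamethasone and 48.7 ± 2.1% (SD, n = 4) in its control. In the library LLC 3 it was 60.4%, against 46.5 to 49.3% in the other LLC libraries. Both mitochondrial rRNAs were listed at 0 in all 30 libraries, so the RNA part of the ribosome could not be set beside its proteins. The muscle label held: the 7 fast fibre markers (Ckm, Acta1, Myh4, Mylpf, Tnnt3, Actn3 and Pvalb) summed to 139414 to 210881 TPM per library. One read in a gene of 1 kb was worth 0.034 to 0.066 deposited TPM. Among the 52 members with recoverable whole reads, the lowest number of reads in any library was 400 (Mrps22).

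The 77 genes were spread over 17 chromosomes, with the most, 10, on chromosome 11. A head-to-head partner was a protein-coding neighbour on the opposite strand that starts within 1000 bp upstream of the member and is transcribed away from it. Pairs whose 5′ ends overlap, such as Mrpl46 and Mrps11, were not counted. Such a partner was found for 18 members (23.4%). The share was 6.80% of all 21008 protein-coding genes, 9.75% of the 12245 that reached 1 TPM in 4 or more libraries, 11.1% of cytosolic ribosomal protein genes and 23.7% of nuclear genes for respiratory chain subunits. Some partners also act in translation. Mrps12, for the small subunit protein that carries the streptomycin-resistance site in bacteria, starts 172 bp from Sars2, the mitochondrial seryl-tRNA synthetase. Mrpl49 starts 59 bp from Fau, which encodes a cytosolic ribosomal protein fused to a ubiquitin-like domain. Other partners act elsewhere: Mrpl32 starts 75 bp from the proteasome subunit gene Psma2.

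Promoters of 68 members were in the RefSeq table (74 promoters, 250 bases before to 50 after a start, GRCm38.p6). They were searched on both strands for cores of factors known to act on genes for mitochondrial proteins. The ETS core CCGGAAG, the kind of site bound by GABP (nuclear respiratory factor 2), was in 25 of 74 (33.8%), against 16.3% of promoters of expressed genes and 8.86% of all 32851 promoters. The YY1 core AAGATGGC was in 12 (16.2%), against 4.20% and 2.75%. The palindromic core of nuclear respiratory factor 1, in capitals in the first 3 windows printed here, was in 3 (4.05%), against 1.98% and 0.971%. The GC box GGGCGG was in 52.7%, below the 60.6% of expressed genes and above the 35.7% of all promoters. The E-box CACGTG was in 9.46%, against 9.85% and 7.15%. The element TCAAGGTCA of oestrogen-related receptors was in none of the 74 and in 0.281% of promoters of expressed genes. The ETS core was in 35.6% of cytosolic ribosomal protein promoters too, and in 23.5% of promoters of nuclear genes for respiratory chain subunits. In the same 2 lists the YY1 core was in 9.59% and 13.2%, and the core of nuclear respiratory factor 1 in 2.74% and 7.35%. Matches are letters in a window and were not tested as binding sites.

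The windows run from 140 bases before to 10 bases after the start, 5′ to 3′ on the strand of the gene, with cores of nuclear respiratory factor 1 and ETS factors (or the reverse complement of the latter, CTTCCGG) in capitals and other cores left in lower case. The first 3 are the members with the nuclear respiratory factor 1 core, 28 bases (Mrpl9), 87 bases (Mrpl32) and 125 bases (Mrpl39) before the start.
Mrpl9, chr3:94443196-94443345, plus strand: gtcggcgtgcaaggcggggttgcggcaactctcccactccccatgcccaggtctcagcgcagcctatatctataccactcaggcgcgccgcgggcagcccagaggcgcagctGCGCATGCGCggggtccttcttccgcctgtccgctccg
Mrpl32, chr13:14613028-14613177, minus strand: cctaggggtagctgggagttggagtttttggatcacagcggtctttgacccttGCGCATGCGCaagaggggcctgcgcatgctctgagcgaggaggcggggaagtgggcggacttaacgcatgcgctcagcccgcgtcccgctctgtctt
Mrpl39, chr16:84735235-84735384, minus strand: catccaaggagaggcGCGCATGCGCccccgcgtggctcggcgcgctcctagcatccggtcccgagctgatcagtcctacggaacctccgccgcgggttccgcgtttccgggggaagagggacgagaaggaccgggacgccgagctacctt
The next 3 show the ETS core in members of unlike level: Mrpl53 (mean 205 TPM in the reference groups) holds 2 copies, 59 and 16 bases before the start. Mrps18a (45.9 TPM) holds 1 copy 26 bases before it, and Mrps22 (13.6 TPM) holds 1 copy 11 bases before it.
Mrpl53, chr6:83108968-83109117, plus strand: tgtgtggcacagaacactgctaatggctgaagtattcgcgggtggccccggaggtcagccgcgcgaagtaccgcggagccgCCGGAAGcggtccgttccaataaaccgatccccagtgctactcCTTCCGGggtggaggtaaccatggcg
Mrps18a, chr17:46110864-46111013, plus strand: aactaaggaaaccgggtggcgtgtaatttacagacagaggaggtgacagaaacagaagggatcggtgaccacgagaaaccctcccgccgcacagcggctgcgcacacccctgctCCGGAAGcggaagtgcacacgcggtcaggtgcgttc
Mrps22, chr9:98601670-98601819, minus strand: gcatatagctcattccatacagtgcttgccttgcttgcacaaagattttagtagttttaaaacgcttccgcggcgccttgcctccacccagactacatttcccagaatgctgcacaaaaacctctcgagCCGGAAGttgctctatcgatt
These 6 examples were chosen with their levels known.

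Levels differed 129-fold between members. In the 15 libraries of the 4 reference groups (young, both controls and NT siRNA), mean TPM ran from 7.75 (Mrps35) to 996 (Mrpl42), with a median of 60.7. Mrpl42, a mitochondria-specific protein of the large subunit, was alone at the top: it had 998 ± 71 TPM in young muscle (SD, n = 3) and 918 ± 73 in NT siRNA muscle (SD, n = 4), and made up 17.6 to 24.9% of the summed Mrpl TPM per library. The next of the large subunit were Mrpl12, the stalk protein that recruits translation factors (274 TPM), Mrpl53 (205) and Mrpl18, of the family that binds 5S rRNA in bacteria (189). The small subunit was led by Mrps21 (342), Mrps28 (201), Mrps16 (181) and Mrps23 (156). At the low end stood Mrpl19 (13.9), Mrpl13 (18.9) and Mrpl47 (23.2) of the large subunit, and Mrps35 (7.75), Mrps10 (11.05) and Mrps22 (13.6) of the small. The members' order hardly differed between the reference groups: Spearman's rho of the 77 group means was 0.986 to 0.993 over the 6 pairs of groups. Levels were lower for genes of greater summed exon length (Spearman's rho = −0.69 over 77 members, a description: TPM divides by length, and members share libraries). The spread between libraries of a group was small, with a median coefficient of variation of 7.39% over members and groups.

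**Figure D1:**
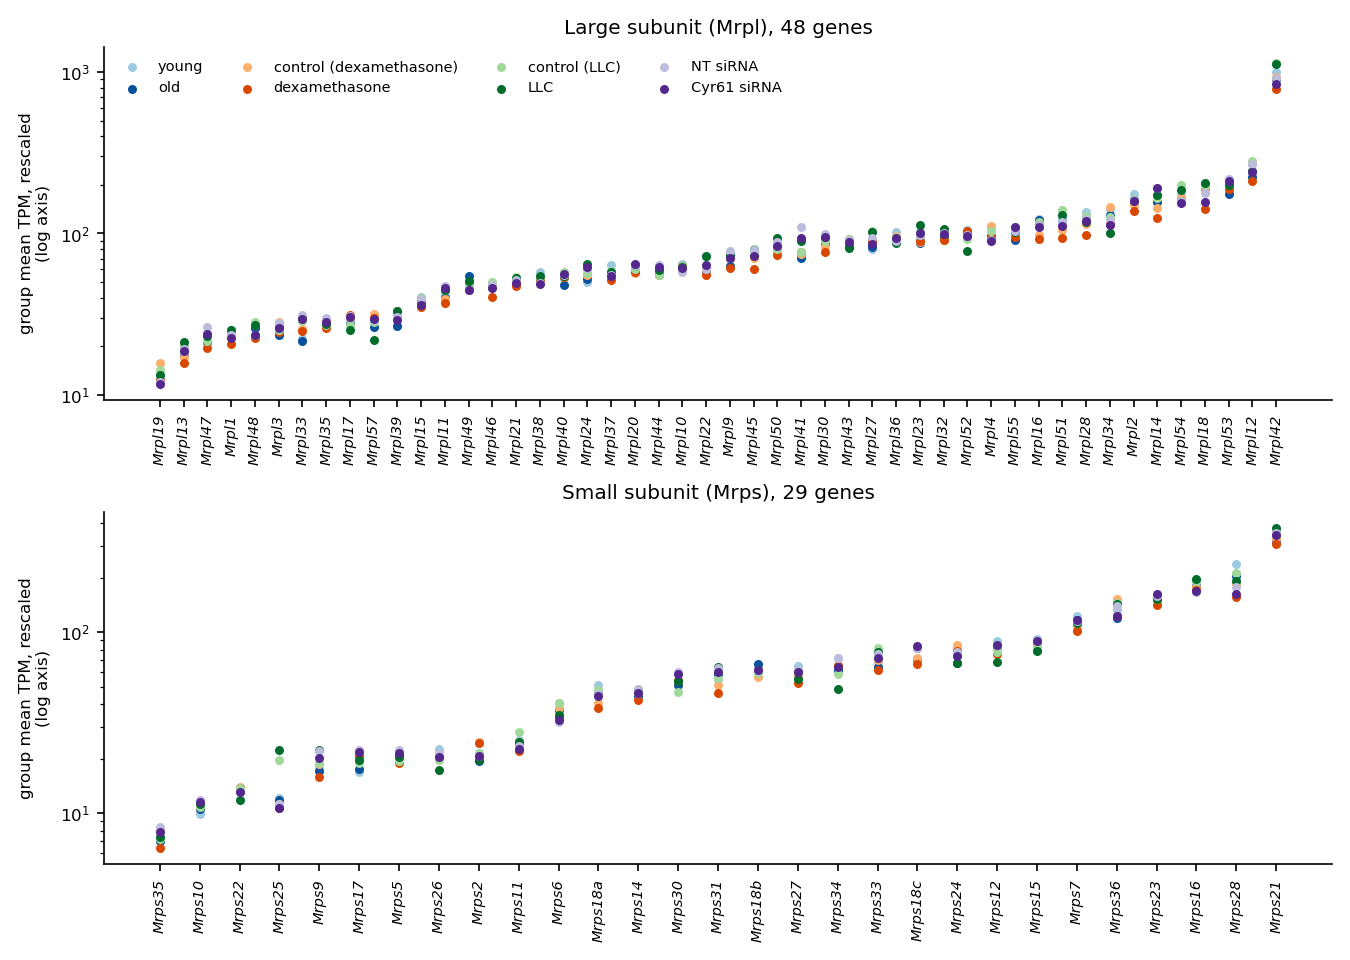
Group mean TPM (rescaled without mitochondrially encoded genes, log axis) of the 48 Mrpl genes (top) and 29 Mrps genes (bottom), ordered by the mean over the 4 reference groups; each dot is 1 of 8 groups. Levels ran from 7.75 TPM for Mrps35 to 996 for Mrpl42, and reference groups differed most for Mrps25 (1.76-fold, LLC control highest), Mrpl41 (1.51-fold) and Mrpl33 (1.42-fold, NT siRNA highest in both).

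Summed over members, the large subunit had 4840 ± 333 TPM in young and 4490 ± 76 in old muscle (SD, n = 3 each). It had 4627 ± 213 in the dexamethasone control and 4154 ± 510 after dexamethasone (SD, n = 4 each). The LLC control had 5055 ± 295 and LLC muscle 4940 ± 437; NT siRNA muscle had 4766 ± 378 and Cyr61 siRNA muscle 4564 ± 338 (SD, n = 4 each). The small subunit summed to 2185 ± 125 in young, 2046 ± 28 in old, 2085 ± 77 in the dexamethasone control and 1913 ± 233 after dexamethasone. It summed to 2165 ± 99 in the LLC control, 2134 ± 113 in LLC, 2138 ± 143 in NT siRNA and 2075 ± 116 in Cyr61 siRNA muscle. Both sums were lower in all 3 old than in all 3 young libraries, and the groups overlapped in the other 3 comparisons. In total the 77 mRNAs made up 0.508 to 0.779% of rescaled TPM. Library dexamethasone 2 had the lowest sum of all 30 libraries, 5079 TPM, and the lowest value for 43 of the 77 members. The ratio of summed Mrpl to Mrps TPM was nearly constant, 2.13 to 2.47 over all libraries. It was 2.21 to 2.47 in the 8 libraries of the LLC experiment and 2.13 to 2.26 in the other 22; with Mrpl42 left out it was 1.73 to 1.87 over all.

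**Figure D2:**
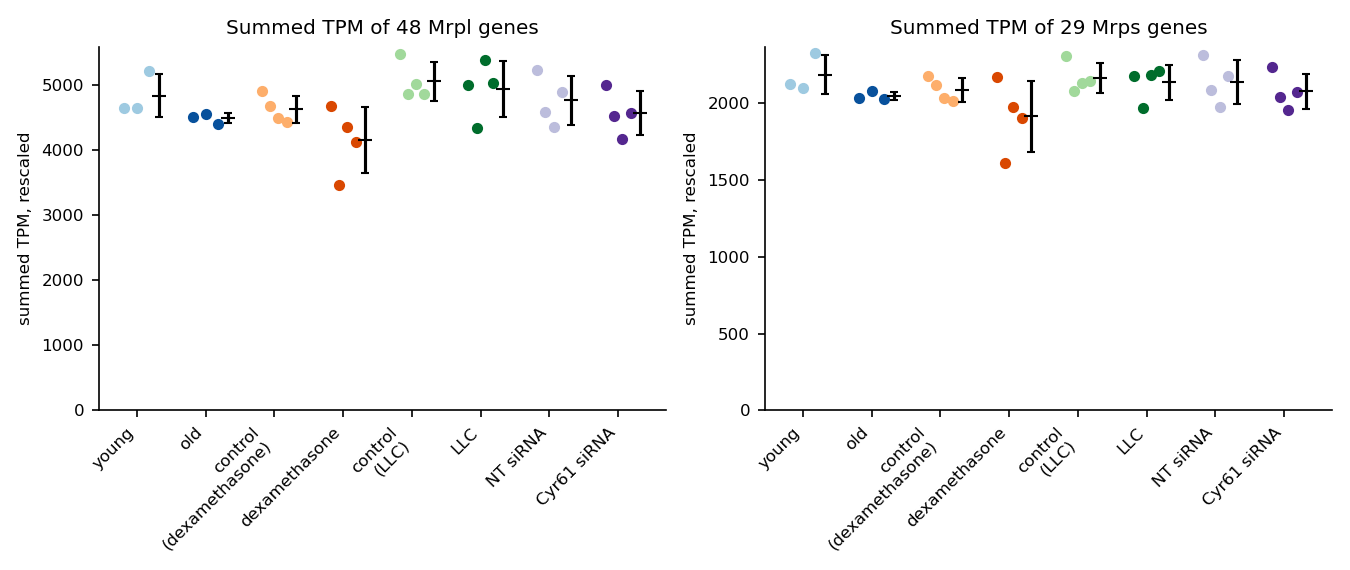
Summed rescaled TPM of the 48 Mrpl genes (left) and the 29 Mrps genes (right) in each library; dots are libraries, and the black bar with whiskers beside each group is its mean ± SD. The lowest library is dexamethasone 2 in both panels, with 5079 TPM over both sums.

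In old against young muscle, member levels lay low against other genes, but no member passed the test. All 77 members had a log2 difference below that of the median gene: the median over members was −0.17 relative to the median of all 11704 genes tested, −0.17 for Mrpl and −0.18 for Mrps. On the rescaled values themselves 62 of 77 members (80.5%) had a negative log2 difference, against 25.4% of all genes. limma called 0 members and 0% of all genes at an adjusted p under 0.05 (lowest member adjusted p = 0.290; 3 members and 1629 genes at an unadjusted p under 0.05). How many members lay below 0 differed with the scale: the median member difference was −0.07 as rescaled, −0.01 on deposited TPM (27 of 77 positive) and −0.18 with median-of-ratios scaling (0 of 77 positive), while relative to the median gene it stayed between −0.19 and −0.14 over all scalings, pseudocounts, filters and fits. Without young 3 it was −0.08. On rescaled values the 95% intervals of all 77 members lay within 1.5-fold in either direction. These intervals do not cover the shift between scales.

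The member with the smallest p was Mrps28, of the small subunit. It had 239, 230 and 243 TPM in young and 206, 201 and 201 TPM in old muscle, so every old library lay below every young one. Its log2 difference was −0.22 (SE 0.07; limma adjusted p = 0.290), or −0.33 relative to the median gene. Mrpl12, the stalk protein, had 249, 244 and 312 TPM in young and 238, 214 and 216 in old muscle. Its log2 difference was −0.26 (SE 0.11; limma adjusted p = 0.337), and the groups did not overlap. Mrpl2, a core protein near the peptidyl transferase centre, had 168, 172 and 188 TPM in young and 156, 159 and 152 in old muscle, and Mrpl38, of the central protuberance, had 55.0, 56.4 and 61.9 against 48.3, 49.8 and 53.5. Lower in every old library than in every young one were 10 members (13.0%), against 2.92% of all genes tested; higher in every old library was 1 member, Mrps5 (1.30%, against 18.7% of all genes).

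After dexamethasone, members again lay low against other genes and no member passed. Of 77 members, 76 had a log2 difference below the median gene, with Mrpl24 the exception (+0.04 relative to it). The median relative difference was −0.22 over all members, −0.22 for Mrpl and −0.22 for Mrps. limma called 0 of 77, while it called 5.56% of the 12961 genes tested higher and 2.96% lower (lowest member adjusted p = 0.0845; 11 members, 14.3%, and 24.1% of all genes at an unadjusted p under 0.05). On rescaled values 68 of 77 members (88.3%) had a negative difference, against 31.6% of all genes, with a member median of −0.12. The direction reversed on deposited TPM, where the member median was 0.15, 68 of 77 were positive and 7 were called higher: Mrpl17, Mrpl24, Mrpl27, Mrpl32, Mrpl41, Mrps18b and Mrps26. On that scale 35.9% of all genes were called higher and 1.51% lower, and the median gene was at 0.33. With median-of-ratios scaling 2 members were called lower, Mrpl19 (−0.45, limma adjusted p = 0.0167) and Mrps9 (−0.33, adjusted p = 0.0481), among 4.89% of all genes lower and 4.34% higher. Relative to the median gene, the member median was −0.23 to −0.16 over all scalings, pseudocounts, filters and fits with all libraries. On rescaled values the 95% intervals of 72 of the 77 members lay within 1.5-fold, which does not cover the shift between scales. Without dexamethasone 2 the relative member median was −0.12. Without dexamethasone 1 it was −0.34, with 5 members called lower (Mrpl12, Mrpl18, Mrpl28, Mrps35 and Mrps36), among 4% of all genes lower. With all groups in 1 fit 4 members were called lower (Mrpl18, Mrpl19, Mrps35 and Mrps36), among 3.76% of all genes.

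Mrps36 had the smallest p. It had 157, 153, 148 and 149 TPM in the control libraries and 135, 102, 131 and 121 TPM after dexamethasone, so the groups did not overlap. The log2 difference was −0.32 (SE 0.10; limma adjusted p = 0.0845), −0.42 relative to the median gene. Mrpl12 had 310, 280, 262 and 255 TPM in the control and 242, 164, 236 and 205 after dexamethasone. It had the lowest relative difference of all members, −0.50, with a log2 difference of −0.40 (SE 0.13; limma adjusted p = 0.0932). Mrpl18 had 199, 184, 168 and 178 TPM in the control and 167, 112, 146 and 144 after dexamethasone (log2 difference −0.37, SE 0.12; limma adjusted p = 0.0964). Mrpl19 had 16.3, 16.2, 15.2 and 15.8 TPM in the control and 10.1, 11.7, 14.3 and 13.2 after dexamethasone (−0.35, SE 0.12; limma adjusted p = 0.0913). In all 4 genes each treated library lay below each control library on rescaled values. In all but Mrpl19, dexamethasone 2 was the lowest of the 8. Lower without overlap were 14 members (18.2%), against 5.89% of all genes, and none was higher without overlap, against 11.6%.

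The samples are whole muscle, in which fewer cells of a type and less RNA per cell cannot be told apart. Of the 6 macrophage markers, 4 were called higher after dexamethasone: the list (Cd68, Adgre1, Csf1r, Lyz2, C1qa and Cd163) summed to 458 to 834 TPM in the control and 1534 to 3923 after dexamethasone. All 6 were above 0 in every library. The library with the lowest member sum, dexamethasone 2, had a macrophage sum of 1655 TPM, and dexamethasone 3, with the highest macrophage sum, had a member sum of 6324 TPM. Fast fibre markers (7 genes) summed to 177255 to 185356 TPM in the control and 161869 to 186377 after dexamethasone, with 0 of 7 called. The 4 slow fibre markers summed to 106 to 165 and 192 to 273 TPM, with 2 called higher and 1 lower. Endothelial markers (4 genes) summed to 280.1 to 298.7 and 176 to 238 TPM, with 1 called lower. Adipocyte markers (3 genes) summed to 3.40 to 11.2 and 13.3 to 16.4 TPM, with 1 of 2 tested called higher. The part of these cells in the member values was not tested.

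In LLC against control muscle most members lay below the median gene, by less than in the 2 comparisons above, and none passed the test. Their median relative difference was −0.08 (Mrpl −0.08, Mrps −0.08), with 64 of 77 below the median gene. The range was −0.44 (Mrpl57) to 0.15 (Mrpl50). limma called 0 of 77, against 3.51% of the 12011 genes tested higher and 1.03% lower (6 members, 7.79%, and 23.3% of all genes at an unadjusted p under 0.05). On rescaled values 44 members had a negative difference and 33 a positive one. On deposited TPM 7 were positive, and with median-of-ratios scaling 10, so the balance of signs differed with the scale. Over all planned scalings, pseudocounts, filters and fits the median relative difference was −0.11 to −0.03. Leaving out LLC 4, limma called 1 member lower, Mrpl57 (−0.51, adjusted p = 0.0447), among 0.659% of all genes lower. Leaving out LLC 2 took the median relative difference to −0.04.

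The 4 members with the smallest p were all higher in every LLC library than in every control library. Mrps30, whose protein sits in the large subunit, had 49.5, 47.5, 46.7 and 43.9 TPM in the control and 55.2, 55.5, 51.5 and 53.6 with LLC. Its log2 difference was 0.20 (SE 0.07; limma adjusted p = 0.119). Mrpl50 had 78.3, 78.3, 82.6 and 79.5 TPM in the control and 95.2, 87.6, 106 and 85.0 with LLC (0.22, SE 0.08; limma adjusted p = 0.147). Mrpl24 had 59.7, 56.4, 55.5 and 57.4 TPM in the control and 62.8, 64.3, 61.8 and 69.6 with LLC (0.17, SE 0.07; limma adjusted p = 0.166). Mrps25 had 19.5, 20.7, 19.7 and 18.7 TPM in the control and 21.6, 22.8, 22.9 and 22.2 with LLC (0.18, SE 0.06; limma adjusted p = 0.138). Higher without overlap were 4 members (5.19%, against 12.3% of all genes), and lower without overlap was 1, Mrpl34 (1.30%, against 3.08%). Both shares are under those of all genes. Beside these values, the 2 red cell markers summed to 660 to 941 TPM in the control and 1158 to 9152 TPM with LLC, with 1 called higher. The 4 endothelial markers summed to 138 to 168 TPM in the control and 145 to 196 TPM with LLC, so the sums overlapped. Of these 4, 1 was called higher and 0 lower, and only Kdr had a lower mean with LLC (20.9 and 14.7 TPM). The part of these cells in the member values was not tested.

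With Cyr61 siRNA no member passed and none separated the groups. The median relative difference was −0.06 for all members, for Mrpl and for Mrps alike, with 66 of 77 below the median gene. It was −0.01 without NT siRNA 1 and −0.11 without NT siRNA 3. limma called 0 of 77 and 0% of the 12245 genes tested (0 members and 240 genes at an unadjusted p under 0.05; every member at an adjusted p of 1.00 after rounding). The members with the smallest p were Mrps28 (178 ± 13 TPM with NT and 161 ± 16 with Cyr61 siRNA; SD, n = 4 each), Mrpl18 (177 ± 25 and 157 ± 15), Mrps34 (71.9 ± 11.1 and 64.3 ± 2.9) and Mrps36 (139 ± 19 and 123 ± 17). All 4 pairs of groups overlapped. Groups without overlap were found for 1.23% of all genes (higher) and 0.343% (lower). The intervals of 76 of the 77 members lay within 1.5-fold.

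**Figure D3:**
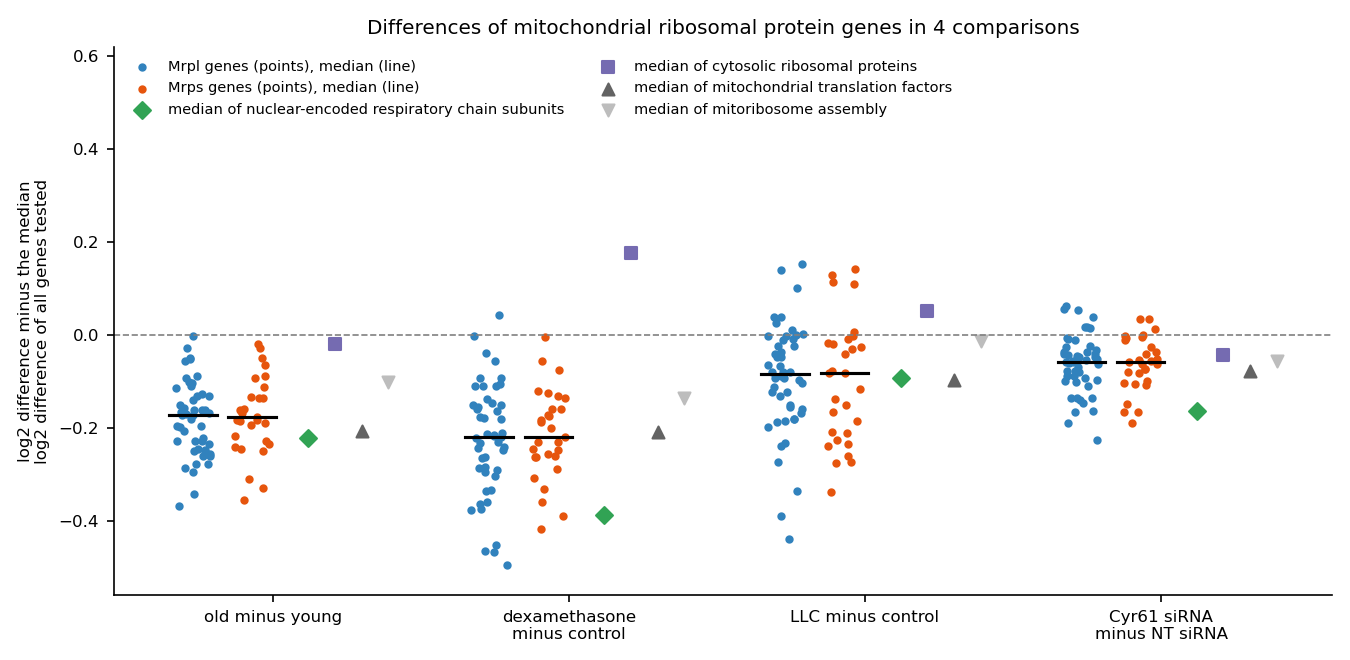
Log2 difference of each member minus the median log2 difference of all genes tested, in the 4 comparisons (blue, 48 Mrpl; orange, 29 Mrps; black lines, medians); symbols to the right are medians of other gene lists. Members lie below 0 in old muscle (median −0.17) and, except Mrpl24, after dexamethasone (median −0.22). With LLC (median −0.08) and Cyr61 siRNA (median −0.06) they lie on both sides of 0, most of them below. The median of cytosolic ribosomal proteins lies at 0.18 after dexamethasone.

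The medians of the subunits lay within 0.01 of each other on the log2 scale in each of the 4 comparisons. Moving Mrps18a and Mrps30 to the large subunit and leaving Mrps36 out gave medians of −0.18 (large) and −0.17 (small) in old muscle, −0.22 and −0.22 after dexamethasone, −0.08 and −0.10 with LLC and −0.06 and −0.06 with Cyr61 siRNA. The 3 Mrps18 paralogues, which share a fold but sit at different places in the ribosome, had levels of 45.9 (Mrps18a), 60.5 (Mrps18b) and 76.6 TPM (Mrps18c) in the reference groups. After dexamethasone their relative differences were −0.19, −0.00 and −0.25, and in old muscle −0.24, −0.09 and −0.09; none passed the test.

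Whether the responses differ was tested in a fit of the 22 libraries of the age, dexamethasone and LLC experiments, whose 3 interaction terms share groups with each other. Between LLC and dexamethasone 1 member passed, Mrps9, a protein of the head of the small subunit; limma called 2.42% of the 13484 genes tested higher and 3.23% lower. Mrps9 had 18.7, 18.3, 17.7 and 19.6 TPM in the dexamethasone control and 14.5, 16.4, 14.6 and 17.5 after dexamethasone. It had 20.1, 16.6, 19.96 and 19.3 TPM in the LLC control and 24.4, 20.9, 24.3 and 19.2 with LLC. Its level was thus lower in each dexamethasone library than in each control, while the LLC groups overlapped. The log2 response to LLC exceeded that to dexamethasone by 0.44 (SE 0.12; limma adjusted p = 0.0404). Leaving out any 1 of 9 of the 16 libraries (dexamethasone 1 or 3, its control 1, 2 or 4, LLC 1 or 3, or its control 2 or 4) took the adjusted p to 0.0550 to 0.0998, and on deposited TPM it was 0.821; on that scale 0 members were called higher (1.09% of all genes) and 16 lower (26.5%). The median member was 0.13 above the median gene in this term, with 65 of 77 above; without dexamethasone 2 the median was −0.00, and without dexamethasone 1 it was 0.23.

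In the other 2 interaction terms limma called 0 members. Between old age and dexamethasone it called 1.91% of genes higher and 0.727% lower (0 members and 1787 genes at an unadjusted p under 0.05). The smallest member p belonged to Mrps31 (0.22, limma adjusted p = 0.426), Mrpl47 (0.28, 0.437) and Mrpl35 (0.24, 0.496). Between old age and LLC it called 0.0667% higher and 0.0593% lower (2 members and 1409 genes at an unadjusted p under 0.05). Here the members were Mrpl44, with an RNase III-like fold (−0.20, limma adjusted p = 0.431), Mrps25 (−0.21, 0.451) and Mrps30 (−0.28, 0.491).

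**Figure D4:**
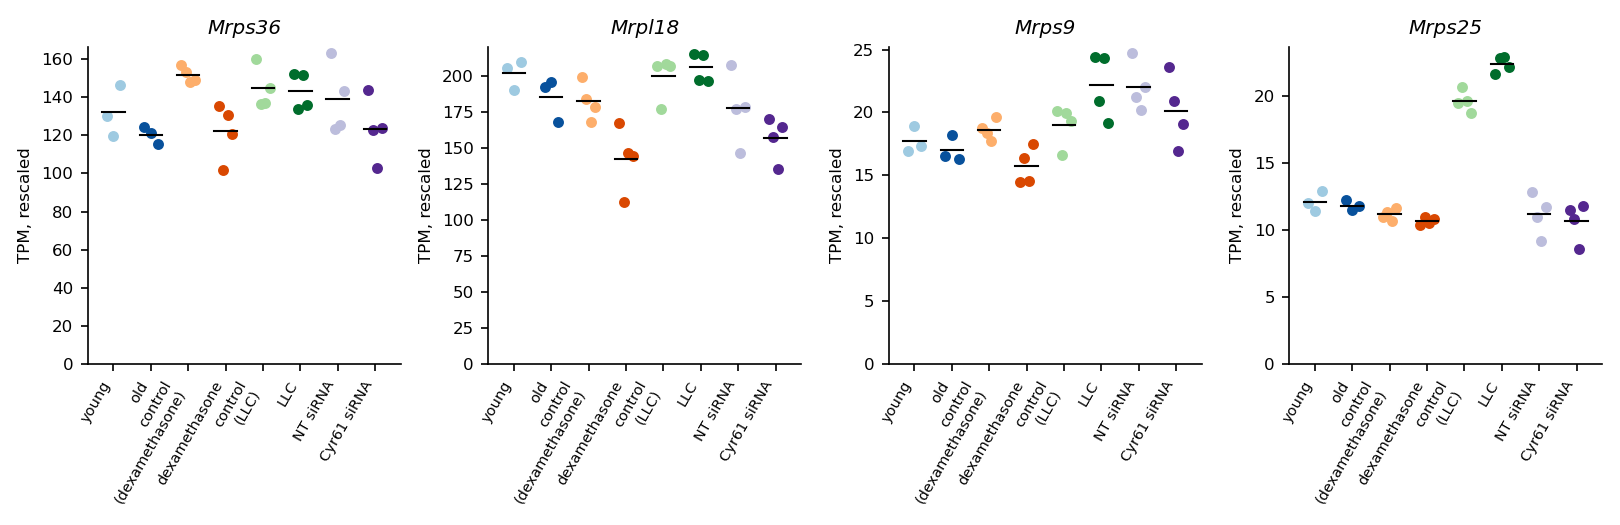
Rescaled TPM of Mrps36, Mrpl18, Mrps9 and Mrps25 in every library (dots) with the group mean (line); axes start at 0. Mrps36 and Mrpl18 are lower in every dexamethasone library than in its control, Mrps9 lies at 14.5 to 17.5 after dexamethasone and 19.2 to 24.4 with LLC, and Mrps25 is at 18.7 to 22.9 in all 8 libraries of the LLC experiment and 8.62 to 12.9 elsewhere.

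Other genes of the pathway were described from lists written for this purpose. The 6 listed mitoribosomal proteins without an Mrp name had a median relative difference of −0.19 in old muscle, −0.28 after dexamethasone, −0.10 with LLC and −0.11 with Cyr61 siRNA, and none of the 6 was called. Of 13 mitochondrial translation factors 1 was called lower after dexamethasone: Taco1, an activator of translation of cytochrome c oxidase subunit I, fell from 99.2 ± 5.1 to 70.6 ± 7.1 TPM (SD, n = 4 each; log2 difference −0.49, limma adjusted p = 0.0139; on deposited TPM −0.21, adjusted p = 0.138). With median-of-ratios scaling Tsfm, an elongation factor, was called lower too. The median of the 13 relative to the median gene was −0.21. Of 23 assembly factors and 18 genes of mitochondrial DNA and RNA upkeep none was called in any of the 4 comparisons on rescaled values or with median-of-ratios scaling. On deposited TPM after dexamethasone, where 35.9% of all genes were called higher, 4 assembly factors (Mtg2, Ngrn, Rpusd4 and Tfb1m) and 3 of the 18 (Elac2, Ssbp1 and Tfb2m) were called higher. Mtg1, a GTPase of mitoribosome assembly, passed in the interaction of old age and dexamethasone (0.43, limma adjusted p = 0.0327), but not on deposited TPM (adjusted p = 0.502) or with median-of-ratios scaling (0.0847). Of 10 regulators of mitochondrial biogenesis, Myc rose after dexamethasone from 5.83 ± 1.21 to 9.57 ± 1.63 TPM (0.64, limma adjusted p = 0.0377). Ppargc1b, a coactivator of oxidative genes, fell with LLC from 6.22 ± 1.26 to 2.95 ± 1.29 TPM (SD, n = 4 each; −0.91, limma adjusted p = 0.0429). Ppara, a receptor that drives fatty acid oxidation, passed in the interaction of LLC and dexamethasone (1.00, limma adjusted p = 0.0414; 0.106 on deposited TPM). Myc and Ppargc1b passed in these comparisons on all 3 scales. Of the 10 regulators after dexamethasone, 1 was called higher and 0 lower on rescaled values, among 5.56% and 2.96% of all genes. On deposited TPM 4 were called higher (Myc, Nrf1, Pprc1 and Yy1) and 0 lower, among 35.9% and 1.51% of all genes. With median-of-ratios scaling 1 was called higher (Myc) and 3 lower (Esrra, Ppara and Ppargc1b), among 4.34% and 4.89% of all genes. The balance thus differed with the scale, as it did for all genes.

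The 77 nuclear genes for respiratory chain subunits had a median relative difference of −0.39 after dexamethasone, where the members had −0.22. Of the 77, 76 were below the median gene. Of the same 77, 9 were called lower and 0 higher, against 2.96% and 5.56% of all genes. Cox7a1, a muscle subunit of cytochrome c oxidase, fell from 1723 ± 140 to 1100 ± 169 TPM (log2 difference −0.66, limma adjusted p = 0.0141). Atp5g3 fell from 1050 ± 42 to 749 ± 77 (−0.49, limma adjusted p = 0.0189), and Cox5a from 2306 ± 109 to 1645 ± 199 (−0.49, limma adjusted p = 0.0297; SD, n = 4 each). With median-of-ratios scaling 5 of the 77 were called lower, among 4.89% of all genes. On deposited TPM 1 was called lower (Cox7a1) and 2 higher (Atp5g2 and Cox8a), among 1.51% and 35.9% of all genes. On that scale the list's median difference was −0.01. Cox7a1 passed on all 3 scales, Atp5g3 on all but deposited TPM (adjusted p = 0.0687), and Cox5a on neither other scale (0.115 and 0.0599). In the other comparisons none of the 77 was called, with medians of −0.22 (old), −0.09 (LLC) and −0.16 (Cyr61 siRNA). Sdhc, a membrane subunit of succinate dehydrogenase, passed in the interaction of LLC and dexamethasone (0.45, limma adjusted p = 0.0279), but not on deposited TPM (0.860) or with median-of-ratios scaling (0.0783). Among cytosolic ribosomal proteins, of 80 tested after dexamethasone, 79 were above the median gene, the median was 0.18, and 1 was called, Rpl10 (68.8 ± 11.1 to 101 ± 15 TPM; 0.55, limma adjusted p = 0.0384). On deposited TPM 63 of 79 were called higher, among 35.9% of all genes, and with median-of-ratios scaling 0 of 80, among 4.34% (Rpl10 adjusted p = 0.143). Their median was −0.02 in old, 0.05 in LLC and −0.04 in Cyr61 siRNA muscle. The differences between lists were not tested.

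Mrps25 differed in level between experiments. All 8 libraries of the LLC experiment, control and LLC alike, had 18.7 to 22.9 TPM, above the 8.62 to 12.9 TPM of the other 22 libraries; no other member separated 1 experiment from the rest. Of 13493 genes that reached 1 TPM in 4 or more libraries, 0.83% were above all other libraries in the LLC experiment and 0.126% below. Mrps25 (chr6:92169525-92184033, minus strand, mm10) overlaps Nr2c2, which encodes an orphan nuclear receptor, on the opposite strand. Nr2c2 had 5.77 to 9.70 TPM in the LLC experiment (median 7.14) and 8.62 to 21.2 elsewhere (median 14.2), the reverse order. Of the 112 genes above all other libraries in the LLC experiment, 104 were in the annotation, and 91 of these (87.5%) overlap a gene on the opposite strand, against 44.1% of all 13053 annotated genes tested and 35 of the 77 members (45.5%). The sources used here do not give the strand setting of the counting, so whether reads of Mrps25 and Nr2c2 were told apart was not tested. Among the 35 members with such an overlap, the log2 ratio of the LLC control to the mean of the other 3 reference groups had a median of 0.03 and a highest value of 0.73 (Mrps25). Among the 42 without, the median was 0.01 and the highest 0.26 (Mrpl51). The comparison of LLC with its own control lies within this experiment. There the mean of Nr2c2 was higher with LLC as well, as it was for Mrps25. Nr2c2 had 6.66 ± 0.67 TPM in the control and 8.28 ± 1.28 with LLC (SD, n = 4 each), and its groups overlapped. Whether reads of Nr2c2 took part in the LLC difference of Mrps25 was not tested.

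Across members, differences went with base composition in 2 of the comparisons. GC content of the longest transcript ran from 38.6 to 60.4%. In old muscle Spearman's rho between GC and log2 difference was −0.50 over 77 members and −0.14 over all genes with a transcript sequence. With LLC it was −0.45 and −0.23, after dexamethasone 0.03 and 0.07, and with Cyr61 siRNA 0.23 and 0.13. For the length of the longest transcript rho in old muscle was 0.29 over members and 0.22 over all genes. With LLC the values for length were 0.23 and 0.14, after dexamethasone 0.06 and 0.08, and with Cyr61 siRNA −0.13 and 0.07. The 38 members of lowest GC had a median relative difference of −0.14 in old muscle and −0.03 with LLC; the 38 of highest GC had −0.23 and −0.16. After dexamethasone the medians were −0.22 and −0.22. Members share libraries and are not replicates, so these values describe the libraries, and the part of library preparation was not tested.

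**Figure D5:**
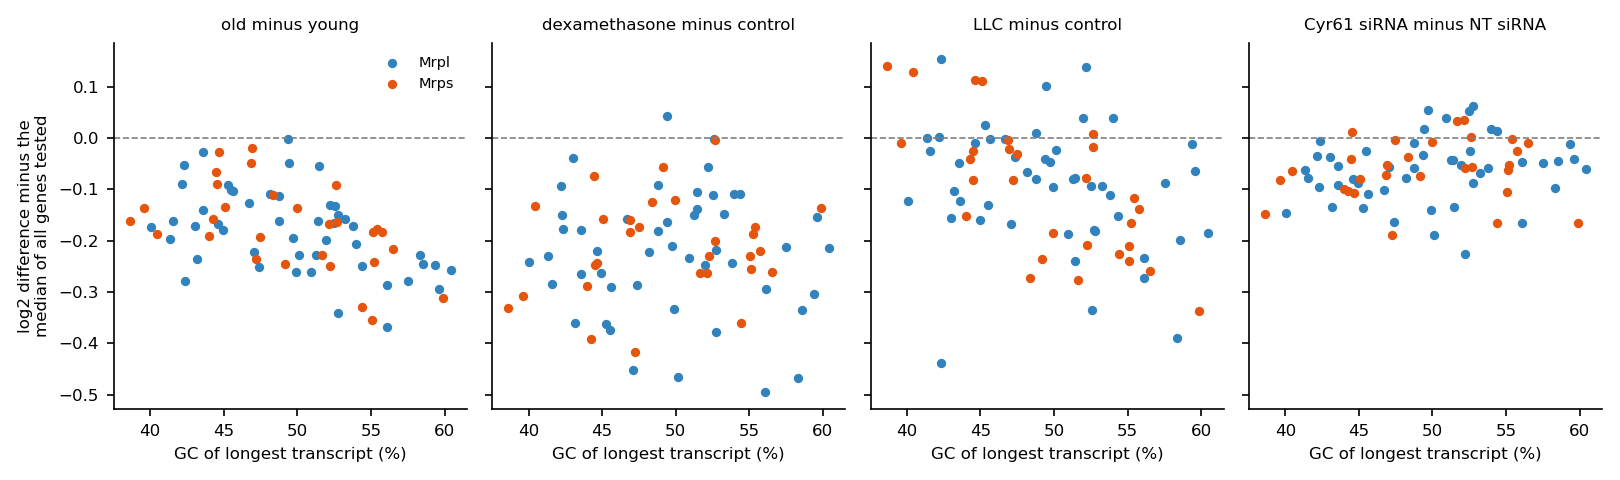
GC content of the longest transcript of each member against its log2 difference minus the median of all genes tested, in the 4 comparisons (blue, Mrpl; orange, Mrps). Points lie lower to the right in old muscle (rho = −0.50) and with LLC (rho = −0.45), and show no such slope after dexamethasone (0.03).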

How the data were processed

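RNA of 30 tibialis anterior samples, called biological replicates in the labels, was extracted with Trizol, made into TruSeq stranded mRNA libraries and sequenced on an Illumina NovaSeq instrument, per the labels' protocols. The authors deposited 1 table of TPM values, with the same total in each column. The submitters' processing notes name mm10 as the build; for the aligner, counter, strand setting and annotation the sources used here give nothing. TPM keeps no depth, but 1 read in a 1-kb gene was worth 0.034 to 0.066 TPM, from the steps of low values.

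Here, the 37 mt- rows were removed and each library rescaled to that total. limma 3.58.1 (R 4.3.3, variance trend) was run on log2(TPM + 1), a scale that understates changes of low genes. A gene was tested if it reached 1 TPM in a number of libraries equal to the size of the smaller group; all 77 members passed in every comparison. Benjamini-Hochberg adjustment ran over all genes tested, and an adjusted p under 0.05 (two-sided) was called. A relative difference is a log2 difference minus the median over all genes tested, since scaling shifted that median by over 0.1. Whether groups overlapped was counted on rescaled values only. Interactions were fitted over 22 libraries. The procedure was tested on simulated data.

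The members and lists were chosen with earlier results of these data known. Named members were, per comparison, those called or otherwise the 4 with the smallest p (3 per interaction), the 4 highest and 3 lowest of each subunit, and Mrpl12, Mrps18a, Mrps18b, Mrps18c, Mrps30 and Mrps36; of each list up to 3 called genes were named. Others were named after their values were seen. Gene positions and overlaps came from GENCODE M21 and promoters from RefSeq (GRCm38.p6). Alternatives were deposited TPM, median-of-ratios scaling, a pseudocount of 0.5 or 0.1, a 5 TPM filter or none, a replicate block, all groups in 1 fit, subunits by structure, and leaving out each library.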

Additional observations from a re-analysis of the deposited data

Results flagged for a closer look

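The response of Mrps9 differed between LLC and dexamethasone by 0.44 on the log2 scale (limma adjusted p = 0.0404, interaction term), 1 of 77 members among 2.42% of all genes called in that direction. On deposited TPM the difference was 0.04 (adjusted p = 0.821), and in 9 of 16 fits that left out 1 library the adjusted p was 0.0550 to 0.0998. On rescaled values the level of Mrps9 lay below every control value in all 4 dexamethasone libraries, and the LLC groups overlapped.

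In groups of 4 libraries, 1 library far from the other 3 (by Dixon's criterion) was found in 6 of 198 groups checked, where chance alone flags about 1 in 20. The small subunit sum was 1966 TPM in LLC 2, against 2179 to 2211 in the other LLC libraries. Mrpl19 had 17.9 TPM in LLC 3, the library with the largest share of mitochondrially encoded genes, against 11.3 to 12.1. Mrpl18 had 177 TPM in control library 2 of the LLC experiment, against 206 to 208, and Mrps23 had 146 there, against 155 to 156. Mrps18b had 63.4 TPM in control library 1 of that experiment, against 58.1 to 58.8. Mrpl35 had 33.2 TPM in Cyr61 siRNA 1, against 26.7 to 26.9.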

How the results depend on the processing

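Members called after dexamethasone depended on the scale and the fit: on deposited TPM 7 were called higher (35.9% of all genes), and 2 were called lower with median-of-ratios scaling (4.89%), 4 with all groups in 1 fit (3.76%) and 0 to 5 when 1 library was left out (5 without dexamethasone 1, with 4% of all genes). With the replicate number as a block 1 was called lower (Mrpl34; 3.75% of all genes); the numbers were not shown to pair samples, since some correlations of same-numbered samples were under 0.1 in each comparison, and samples correlated best with their own number in 2 of 3 (age) and 2 of 4 (each other experiment). With LLC, leaving out 1 library gave 0 to 1 called lower (0.659% of all genes without LLC 4). Members whose response to LLC exceeded that to dexamethasone numbered 1 as fitted, 0 on deposited TPM (where 16 were called the other way, with 26.5% of all genes), 2 without a filter (1.82% of all genes), and 0 to 2 with 1 library left out. No other count of called members moved, block included. Leaving out 1 library moved the median member relative to the median gene between −0.235 and −0.0845 (old), −0.337 and −0.116 (dexamethasone), −0.116 and −0.0376 (LLC), −0.110 and −0.0142 (Cyr61 siRNA), −0.155 and −0.00622 (old against LLC), −0.00477 and 0.233 (LLC against dexamethasone) and −0.0693 and 0.137 (old against dexamethasone). Mrps9 kept an adjusted p under 0.05 in the interaction with pseudocounts of 0.1 and 0.5, both filters, median-of-ratios scaling and the block. Among the 52 members with recoverable reads, the error expected from counting alone was 5% at the lowest read number (400 reads). It was 3.4% at the median of the members' lowest read numbers, beside a median coefficient of variation within groups of 7.39% over all members. For the other members the counting error was not estimated.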
